A study of Danio rerio with 12 samples.

Results

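Expression in whole zebrafish larvae was examined for departures from additivity between 2 states, each marked by the signal of 1 gene. All 12 arrays of the series were used, 12 of 12, in a crossed layout of 4 marker states with 3 arrays each. The states were defined by measured signals and not by the titles. An array counted as cyp1a high where the only cyp1a probe set of the array was above a signal of 5000, and as cyp19a1b high where the brightest of the 3 cyp19a1b probe sets was above 150. The 2 marker genes therefore carry no evidence about the states, and the states are marker states, not exposures.

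The series compared wild-type larvae of a commercial EkkWill stock under 4 labelled exposures with 3 arrays each. The titles name the mixture of 0.1 µM 17beta-estradiol and 1 nM of the dioxin TCDD (E2+TCDD), 1 nM TCDD alone, 0.1 µM estradiol alone (E2), and the solvent dimethylsulfoxide at 0.1% (DMSO). All compounds were given in that solvent at some point between 72 and 96 hours post fertilisation (hpf), and all larvae were collected at 96 hpf. Each array carried RNA of 1 pool of about 30 whole larvae, so that a level is a sum over all tissues and over animals. The labels do not say how long within that window the exposure lasted.

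TCDD binds the aryl hydrocarbon receptor (AHR), a ligand-activated transcription factor that pairs with ARNT and switches on genes of foreign-compound metabolism, of which cyp1a is the classical readout. Estradiol binds nuclear estrogen receptors, and in zebrafish larvae the brain aromatase gene cyp19a1b, transcribed in radial glia, is the classical readout. Cross-talk between both receptors is known from other systems, for example as lowered estrogen responses in mammalian cells given AHR ligands. Non-additivity is the form in which such cross-talk would appear in a crossed design: a difference tied to 1 state that changes with the other state.

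The titles disagreed with the markers. Of the 12 arrays, 6 had the marker signals that their title implies and 6 had not, and all 6 of these were among the 8 arrays whose description ends in the letter B. The both-high state held the arrays titled E2+TCDD 1, E2 3 and E2+TCDD 3. The state with cyp1a high alone held TCDD 1, E2 2 and E2+TCDD 2. The state with cyp19a1b high alone held E2 1, DMSO 3 and TCDD 3, and the state with neither high held DMSO 1, DMSO 2 and TCDD 2. Whether titles, samples or files were exchanged was not tested.

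Each state held 1 array of each of 3 blocks, formed from the number and letter in the description: letter C with the lower series of numbers, letter B with the same lower series (both called the first series here), and letter B with the higher series of numbers (the second series). The series text speaks of 2 independent batches and does not say which arrays they hold, so the blocks are labels only. Pairs of arrays of 1 block correlated with a median r of 0.986 over probe sets (18 pairs), and pairs of different blocks with 0.972 (48 pairs). The 4 pairs of a letter C and a letter B array with the same description number correlated between 0.968 and 0.976. Their median of 0.973 was below that within a block and close to that of different blocks. Both arrays of each such pair had the same marker state. The labels call the samples biological replicates and do not say whether such a pair carries the same RNA. The p-values measure the spread between these arrays and would treat repeats of the same RNA as separate replicates.

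The plot of the marker plane shows how far the arrays lay from the 2 limits. The signal of cyp1a was 23173.2, 21650.5 and 21509.5 in the both-high arrays, in the order letter C, letter B of the first series, letter B of the second series, which is used for all 3-array values. It was 21109.4, 21022.5 and 20170.0 with cyp1a high alone, 414.7, 413.4 and 263.9 with cyp19a1b high alone, and 381.6, 329.4 and 323.8 with neither high. The signal of cyp19a1b was 255.9, 267.1 and 256.4 in the both-high arrays, 70.1, 45.7 and 36.1 with cyp1a high alone, 296.5, 287.0 and 256.9 with cyp19a1b high alone, and 46.3, 50.2 and 52.1 with neither high. The arrays nearest to the limits had cyp1a signals of 20170.0 above and 414.7 below, and cyp19a1b signals of 255.9 above and 70.1 below. No array lay between those values. The other cyp19a1b probe sets were left out of the fit as dim. With both high, cyp1a high alone, cyp19a1b high alone and neither high, one had mean signals of 55.8, 33.6, 61.4 and 52.1. Another had 20.1, 18.4, 21.9 and 12.1. Neither showed the gap of the marker probe set, so the cyp19a1b states rest on 1 probe set. The crossed arrangement of the signals is set by the rule and was not tested.

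**Figure D1:**
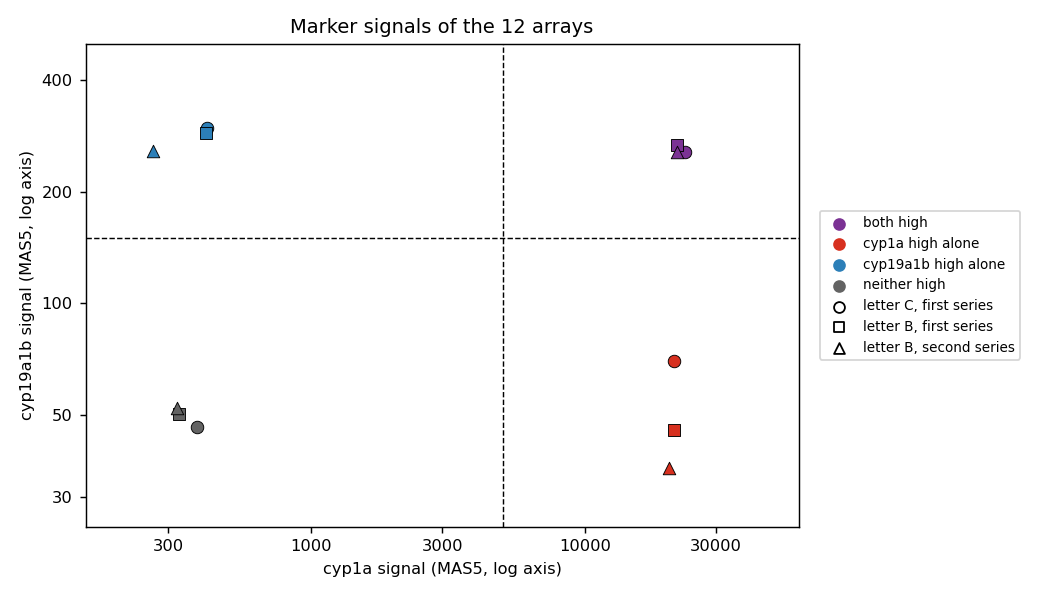
Signal of cyp1a (horizontal, log axis) against that of cyp19a1b (vertical, log axis) in each of the 12 arrays, coloured by marker state, with the block as the symbol and the limits of 5000 and 150 as dashed lines. The 4 states form 4 separate groups of 3 arrays, with all cyp1a-high arrays at 20170.0 or above and all cyp19a1b-high arrays at 255.9 or above.

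The interaction was computed on log2(signal + 16) as both high minus cyp1a high alone minus cyp19a1b high alone plus neither high. Fold differences of the interaction are those of signal + 16. A value of 1 means that the fold difference tied to the cyp1a state was 2 times as large among cyp19a1b-high as among cyp19a1b-low arrays. A value of 0 means that the fold differences multiply. For dim probe sets the added 16 makes these fold differences smaller than those of the signal itself. No probe set passed. With limma and the 3 blocks in the model, 0 of 11626 probe sets, covering 7309 gene symbols, had an adjusted p under 0.05 (0%), and the lowest adjusted p was 0.998. At an unadjusted p under 0.05 there were 429 probe sets (3.69%), 177 of them positive (1.52%) and the others negative (2.17%). After median centring of each array that split was 223 positive and 203 negative, so its direction depended on the scaling. Grouped by the titles instead, a model of the same form gave 0 adjusted calls and 679 at an unadjusted p under 0.05 (5.84%). By titles, letter B of the first series holds only DMSO and E2 arrays, and the second series only TCDD and E2+TCDD arrays. Within letter B the titled TCDD exposure and the number series therefore cannot be told apart. Only letter C holds all titled groups, so this count is not a like comparison.

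The absence of calls came with intervals of limited width. The median standard error of the interaction was 0.169 on the log2 scale, the median half-width of the 95% interval was 0.36, and the 90th percentile of the half-widths was 0.561. The interval lay inside -1 to 1 for 11221 probe sets (96.5%) and reached 1 or beyond in either direction for 405 (3.48%). It lay within a 1.5-fold departure, 0.585 on the log2 scale, for 7742 probe sets (66.6%). Estimates themselves were centred near 0, with a median of -0.0052, a median size of 0.114 and 48.7% of probe sets above 0. Only 8 estimates were beyond 1 in size, 6 above and 2 below, and none of them passed the test after adjustment. For most of all probe sets departures of 2-fold and of 1.5-fold were thus outside the interval. That does not hold for those with large cyp1a-state differences. Of 22 with at least a 2-fold difference, described below, 11 had an interval inside -1 to 1. All intervals treat possible repeats of the same RNA as separate arrays.

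Interactions beyond 1 in size did not recur with one sign in all 3 blocks. Each block holds 1 array of every state and gives its own value without replicates. Beyond 1 in size were 310 probe sets in letter C (86 positive and 224 negative), 114 in letter B of the first series (52 and 62) and 130 in letter B of the second series (81 and 49). The letter C values were the most spread, with a standard deviation over probe sets of 0.419, against 0.323 and 0.314 in the other blocks. Letter C and letter B of the first series had 7 probe sets beyond 1 with one sign in both and 8 with opposite signs. Letter C and the second series had 4 and 8, and the letter B blocks had 2 and 7. In all, 3 probe sets were beyond 1 in all 3 blocks and 0 of them kept one sign.

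Across probe sets the within-block interactions had correlations near 0, in contrast to the differences tied to the cyp1a state. For the interaction, Pearson's r was -0.042 between letter C and letter B of the first series, -0.0052 between letter C and the second series, and -0.062 between the letter B blocks, with Spearman's rho of -0.045, -0.0060 and -0.053. For the cyp1a-state difference, the mean of cyp1a-high minus cyp1a-low arrays, the same 3 pairs gave r of 0.438, 0.402 and 0.518 and rho of 0.212, 0.187 and 0.309. For the cyp19a1b-state difference r was 0.029, -0.021 and -0.025. The interaction had one sign in all 3 blocks for 22.6% of probe sets, the cyp19a1b-state difference for 24.2% and the cyp1a-state difference for 36.5%. The interaction is a difference between differences of single arrays, while each state difference is a difference between means of arrays. Noise of the arrays therefore weighs more on the interaction. For an effect of equal size this lowers its correlations and its share of one sign, so the measures are not alike. These correlations run across 11626 probe sets that share arrays and are not independent, and the marker states were defined on 1 of those probe sets each, so they are descriptions.

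**Figure D2:**
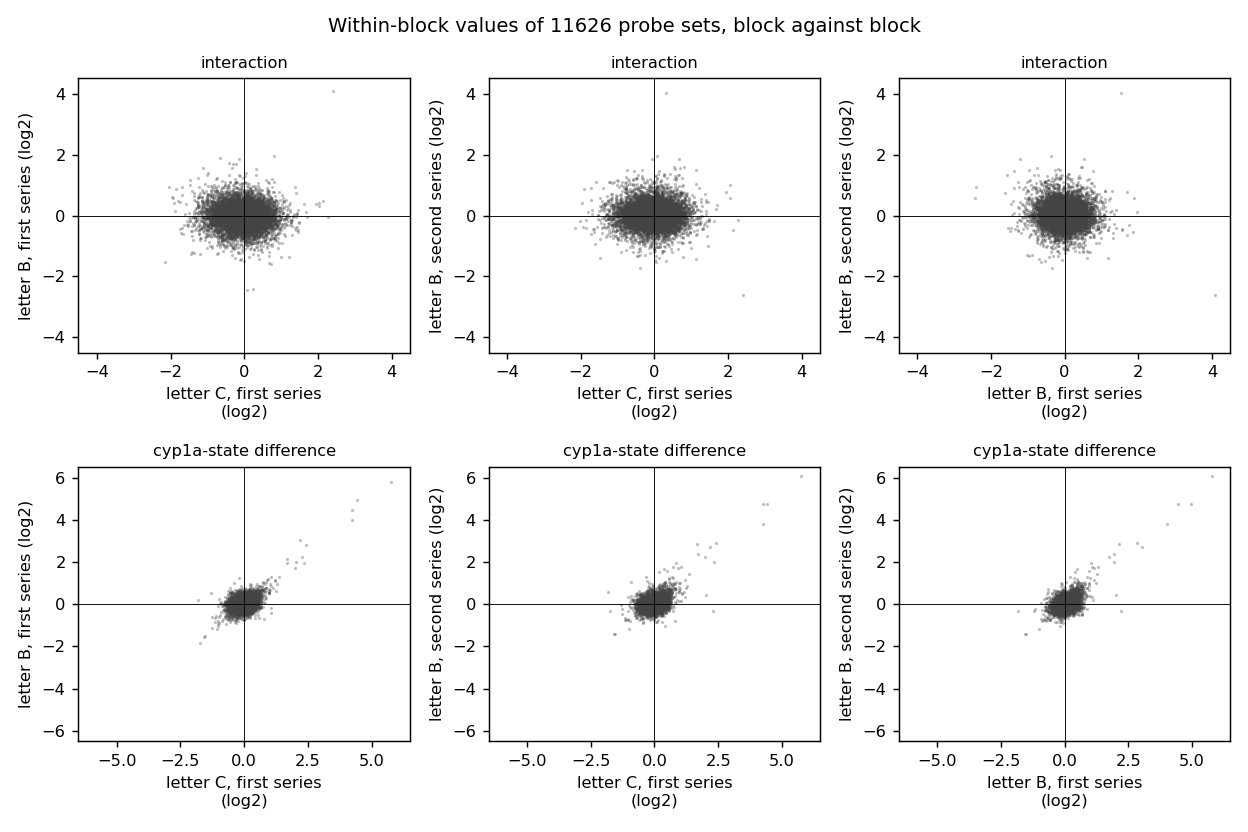
Within-block values of 11626 probe sets in 1 block against another, for the interaction (top row) and the cyp1a-state difference (bottom row), both on the log2(signal + 16) scale, 1 point per probe set. The interaction forms a round cloud with r between -0.062 and -0.0052, and the cyp1a-state difference has an arm of high points along the diagonal with r between 0.402 and 0.518. The points and r include the cyp1a marker probe set, with values of 5.74, 5.79 and 6.08 in the blocks. Its place in that arm was set by the rule and is no evidence.

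The probe sets with the largest cyp1a-state differences were described with and without high cyp19a1b. Those differences chose the probe sets and carry no test here, and the interaction is a separate contrast of the same arrays. Besides the markers, 22 probe sets had a cyp1a-state difference of at least 2-fold with one sign in all blocks, 18 higher and 4 lower, and 16 of the 22 had a gene symbol. The median size of that difference was 1.43 on the log2 scale among cyp19a1b-high arrays and 1.54 among cyp19a1b-low arrays. With its sign turned to the direction of the difference, the interaction had a median of -0.15 and ran from -0.59 to 0.44, with 9 values positive and 13 negative. The 22 are not separate genes, since fosab, cyp1c1 and cyp3a65 each had more than 1 probe set among them. Those of fosab were all negative, at -0.43, -0.46, -0.49 and -0.59. Of the 22, 0 had an unadjusted p under 0.05 in limma, and 11 had an interval inside -1 to 1. The intervals of the others reached a 2-fold departure or beyond, so a similar size was not established for each probe set. In the lower of their cyp1a states 5 of the 22, ccl27a, 1 probe set each of cyp1c1 and mpx and 2 with no symbol, had a mean log2 level under 6.366, the lowest mean over 12 arrays of any probe set tested, so these 5 passed the filter only through the higher state. The medians and counts above include these 5, so they are descriptions and do not show a similar size.

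The AHR-linked enzyme cyp1c1, a monooxygenase related to cyp1a, had signals of 2560.2, 3222.5 and 3014.5 in the both-high arrays. It had 2102.8, 3690.4 and 2982.7 with cyp1a high alone, 93.2, 94.4 and 78.2 with cyp19a1b high alone, and 92.6, 98.4 and 118.3 with neither high. All cyp1a-high arrays were far above all others, and within each cyp1a state the ranges of the cyp19a1b states overlapped. The interaction of cyp1c1 was 0.22 (SE 0.19, 95% interval -0.19 to 0.63), with block values of 0.27, -0.14 and 0.53. A second cyp1c1 probe set gave 0.07 (SE 0.31), but with signals of 7.5 to 47.0 in the cyp1a-low arrays it passed the filter on dim probe sets only through the cyp1a-high arrays.

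The gene tiparp, whose product adds ADP-ribose to the AHR and dampens it, had signals of 1246.4, 1201.8 and 1054.5 in the both-high arrays and 1025.3, 958.2 and 1101.4 with cyp1a high alone. It had 453.9, 462.3 and 481.9 with cyp19a1b high alone and 502.6, 484.7 and 465.7 with neither high. Its interaction was 0.23 (SE 0.13, interval -0.04 to 0.50), positive in both first-series blocks at 0.42 and 0.39 and -0.11 in the second series. In the second series the both-high array was the lower of the cyp1a-high pair.

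The receptor gene ahr2, which encodes the main TCDD receptor of zebrafish, had 817.7, 1015.7 and 1091.4 in the both-high arrays, 1129.5, 1157.6 and 1108.6 with cyp1a high alone, 912.1, 639.8 and 590.3 with cyp19a1b high alone, and 602.3, 690.8 and 616.6 with neither high. Its interaction was -0.36 (SE 0.20, interval -0.78 to 0.06). The block values of ahr2 were -1.04 in letter C, -0.08 in letter B of the first series and 0.04 in the second series, so that the letter C arrays carried nearly all of it. In letter C the both-high array was below, and the array with cyp19a1b high alone was above, the other arrays of the same cyp1a state.

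Among enzymes of foreign-compound metabolism, sult6b1, a sulfotransferase gene, had 5430.3, 4904.4 and 4982.4 in the both-high arrays, 5477.9, 5135.6 and 4599.0 with cyp1a high alone, 1314.2, 1490.0 and 940.7 with cyp19a1b high alone, and 1440.6, 1525.2 and 1057.9 with neither high. Its interaction was 0.12 (SE 0.14, interval -0.18 to 0.43). The interval of sult6b1 was among the narrower ones, and the cyp19a1b states overlapped at both cyp1a states. For cyb5a, the electron carrier cytochrome b5, the interaction was 0.11 (SE 0.19, interval -0.29 to 0.50).

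The drug-metabolising monooxygenase cyp3a65 had 2822.2, 2015.2 and 1927.8 in the both-high arrays, 2220.1, 2234.4 and 1527.0 with cyp1a high alone, 814.6, 527.4 and 162.6 with cyp19a1b high alone, and 723.8, 425.9 and 301.7 with neither high. The interaction of cyp3a65 was 0.30 (SE 0.33, interval -0.41 to 1.01) and its block values were 0.18, -0.45 and 1.16. The positive value rested on the array titled TCDD 3, whose signal of 162.6 was the lowest of the gene. Without that array the interaction was -0.15.

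The 2 genes lower in cyp1a-high arrays among the 10 with the largest such differences had cyp1a-state differences of -1.45 (sox9b) and -1.45 (krt15) among cyp19a1b-high arrays, against -1.53 and -1.55 among cyp19a1b-low arrays. The transcription factor gene sox9b, needed for jaw cartilage and known in zebrafish to be lowered by TCDD, had 288.9, 269.9 and 318.6 in the both-high arrays, 224.2, 309.2 and 306.7 with cyp1a high alone, 765.9, 875.7 and 829.6 with cyp19a1b high alone, and 778.9, 847.5 and 862.7 with neither high. Its interaction was 0.08 (SE 0.15, interval -0.23 to 0.39). The skin keratin krt15 had 854.5, 916.8 and 905.3 in the both-high arrays, 898.2, 819.7 and 982.0 with cyp1a high alone, 2517.8, 2530.9 and 2347.6 with cyp19a1b high alone, and 2761.4, 2563.6 and 2669.5 with neither high. Its interaction was 0.10 (SE 0.11, interval -0.14 to 0.34), the narrowest interval among the 10 genes named for the cyp1a state. In whole larvae, fewer cells of a type and less RNA per cell cannot be told apart.

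The remaining genes named for the cyp1a state had standard errors of 0.30 to 0.51. The chemokine gene ccl27a had an interaction of 0.29 (SE 0.35, interval -0.44 to 1.03), with 1.32 in letter C and -0.04 and -0.40 in the letter B blocks. Its signals in the cyp1a-low arrays were 7.5 to 35.7, so that it passed the filter only through the cyp1a-high arrays. The letter C value rests on 7.5 with cyp19a1b high alone, against 32.9 with neither high, where the probe set is dim. The early response gene fosab had -0.43 (SE 0.51), with negative values in all 3 blocks, and 0.15 without the array titled E2+TCDD 2, where its signal was 1532.3. Its 3 other probe sets had -0.46, -0.49 and -0.59, of which only the last was negative in all 3 blocks. The probe set with -0.46 had 0.38 in the second series, and that with -0.49 had 0.24 in letter C. LOC567909 had -0.54 (SE 0.40), also negative in all 3 blocks, and its cyp1a-state difference was far larger in the first series than in the second. In the second series it had 204.4 in the both-high array, 314.6 with cyp1a high alone, 200.5 with cyp19a1b high alone and 162.4 with neither high. A probe set annotated to the myeloid peroxidase gene mpx had -0.46 (SE 0.30). Its signals in the cyp1a-low arrays were 5.4 to 40.3, it too passed the filter only through the cyp1a-high arrays, and its second-series value of -1.06 rests on the signal of 5.4. Its name shares the cluster number of the cyp1a probe set and had a cyp1a-state difference of 4.48, while another mpx probe set had a cyp1a-state difference of -0.34, so that the gene measured by the first mpx probe set is uncertain.

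**Figure D3:**
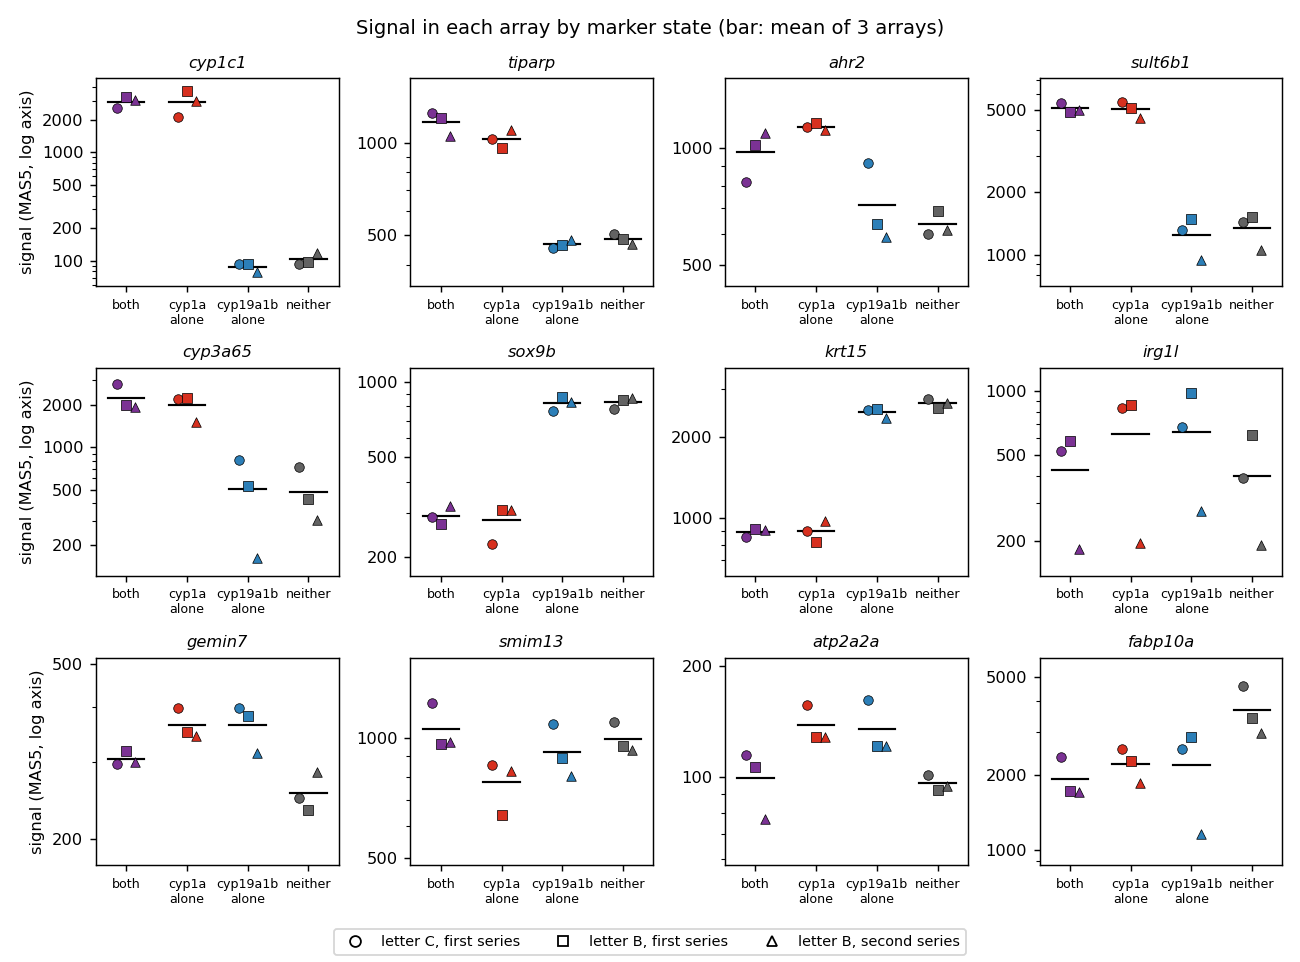
Signal (log axis) of 12 genes in each array by marker state, with the block as the symbol and the mean of 3 arrays as a bar. For cyp1c1, tiparp, sult6b1, sox9b and krt15 the both-high arrays overlap the arrays with cyp1a high alone, and for irg1l, gemin7 and atp2a2a the both-high and neither-high arrays lie below the others of their block.

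The clock gene per2, which light induces in zebrafish, and the glucocorticoid-responsive cochaperone fkbp5 belong to the set of genes named for their known roles. The signals of per2 were 829.1, 700.4 and 195.7 in the both-high arrays, 1116.1, 978.1 and 172.8 with cyp1a high alone, 169.9, 161.4 and 223.8 with cyp19a1b high alone, and 202.1, 168.1 and 236.7 with neither high. Only the first-series arrays were high in the cyp1a-high states. The interaction of per2 was -0.12 with an SE of 0.64 (interval -1.48 to 1.23), the widest interval among the genes of that set. For fkbp5 it was -0.28 (SE 0.27, interval -0.85 to 0.28), with block values of -0.67, -0.46 and 0.28.

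Genes with a known estrogen link gave little to test. No probe set had a cyp19a1b-state difference of 2-fold or more with one sign in all blocks apart from the marker itself, and 4 had a difference over 0.5 in size. The estrogen receptor genes esr1, esr2a and esr2b had 5 probe sets, with signals of 3.6 to 80.3 over all arrays, all left out as dim. No probe set on the array was annotated to the yolk precursor vtg1. The lysosomal protease ctsd, an estrogen target in human breast cancer cells, had signals between 3265.8 and 3815.2 in all 12 arrays and an interaction of 0.08 (SE 0.10, interval -0.13 to 0.29). The interaction is also the change of the cyp19a1b-state difference with the cyp1a state, and it was fitted for all probe sets tested. Very few genes beyond the marker had a sizeable average cyp19a1b-state difference. A small average does not limit the interaction, since differences of opposite sign in the cyp1a states cancel in the average.

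Among the 10 genes with the largest cyp19a1b-state differences, fabp10a, the liver fatty acid carrier, had the largest interaction. Its signals were 2371.6, 1729.2 and 1708.7 in the both-high arrays, 2544.1, 2272.7 and 1865.5 with cyp1a high alone, 2561.4, 2856.8 and 1155.4 with cyp19a1b high alone, and 4586.3, 3411.2 and 2969.6 with neither high. The arrays with neither high were the 3 highest of the gene, and the other states overlapped. Its interaction was 0.61 (SE 0.23, interval 0.12 to 1.09, limma unadjusted p = 0.0177, adjusted p = 0.998), with block values of 0.74, -0.14 and 1.22. Without the array titled TCDD 3, where the signal was 1155.4, the interaction of fabp10a was 0.32. The other 9 ran from -0.28 (zgc:113054, SE 0.14) to 0.22 (si:dkey-193p11.2, SE 0.19), and all 9 intervals held 0. Of these, rrad, a small GTPase gene of muscle, had 0.14 (SE 0.30), actn2b, an actinin gene of muscle, had 0.15 (SE 0.24), and wdhd1, a replication gene, had -0.08 (SE 0.21). The values of tspan34b, armc1, ccdc137 and zgc:162964 were -0.20, -0.14, 0.13 and 0.13.

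**Figure D4:**
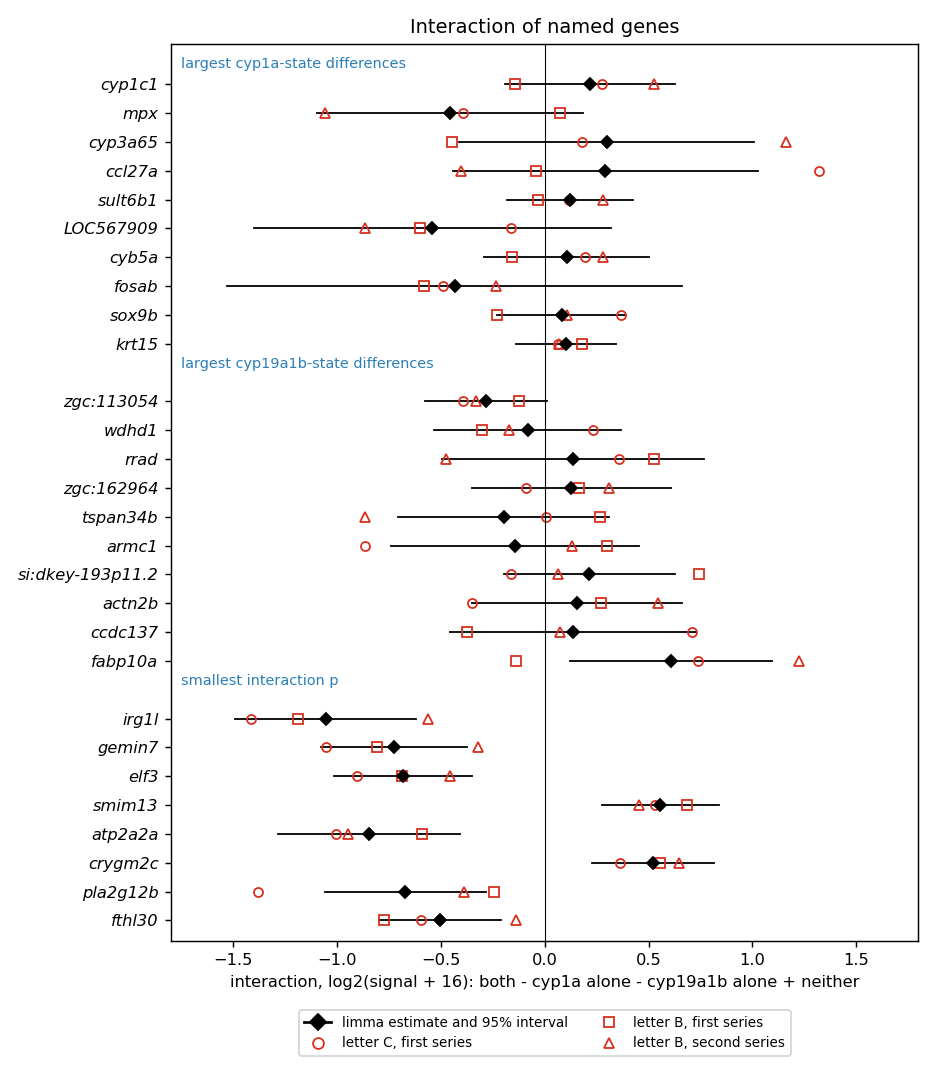
Interaction of 28 genes on the log2(signal + 16) scale, with the limma estimate and its 95% interval (black) and the value of each block (red symbols), grouped by the reason for which the gene is shown. All intervals of the genes with the largest cyp1a-state differences include 0, and the intervals in the lowest group exclude 0 because those genes were selected on their small unadjusted p, with an adjusted p of 0.998 each.

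The genes with the smallest unadjusted p were selected on the interaction itself, so their estimates are descriptions. The smallest was that of irg1l, related to the mammalian gene for the enzyme that makes itaconate in activated macrophages. It had 522.0, 581.1 and 183.3 in the both-high arrays, 831.4, 856.8 and 194.9 with cyp1a high alone, 676.6, 980.8 and 273.7 with cyp19a1b high alone, and 392.8, 622.6 and 191.7 with neither high. In every block the array with cyp19a1b high alone was above the array with neither high, and the array with cyp1a high alone above the both-high array. The states overlapped across blocks, since the second-series arrays were the lowest in each state. The interaction of irg1l was -1.06 (SE 0.20, interval -1.49 to -0.62, limma unadjusted p = 1.08e-04, adjusted p = 0.998), with block values of -1.42, -1.19 and -0.56.

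A like pattern, with the both-high and neither-high arrays below the others, was seen for gemin7, which encodes a part of the complex that assembles spliceosomal particles. Its signals were 296.8, 318.6 and 300.7 in the both-high arrays, 398.3, 350.6 and 343.0 with cyp1a high alone, 398.2, 381.6 and 315.0 with cyp19a1b high alone, and 248.5, 233.0 and 284.4 with neither high. The interaction of gemin7 was -0.73 (SE 0.17), negative in all blocks. For elf3, an epithelial transcription factor gene, it was -0.68 (SE 0.16), with -0.90, -0.69 and -0.46 in the blocks. For pla2g12b, a gene of the phospholipase A2 family known in mouse for lipoprotein secretion by the liver, it was -0.67 (SE 0.18), most of it in letter C with -1.38. For fthl30, a ferritin heavy chain gene whose probe set carries the suffix x_at of probes shared with other sequences, it was -0.50 (SE 0.14). The name of that probe set shares the cluster number of a probe set of the keratin gene krt91, so the gene measured is uncertain.

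Other probe sets of the same genes did not show these values. The calcium pump gene atp2a2a had 115.1, 106.3 and 76.8 in the both-high arrays, 157.0, 128.8 and 128.5 with cyp1a high alone, 162.3, 121.7 and 121.1 with cyp19a1b high alone, and 101.2, 92.3 and 94.7 with neither high. That gave -0.85 (SE 0.21), while a second and brighter atp2a2a probe set gave 0.12 (SE 0.18, interval -0.26 to 0.50). The gene smim13, for a small membrane protein, had 1222.4, 963.4 and 976.9 in the both-high arrays, 854.2, 639.4 and 827.0 with cyp1a high alone, 1081.3, 888.2 and 800.6 with cyp19a1b high alone, and 1099.0, 955.7 and 934.7 with neither high. That gave 0.56 (SE 0.13), and a second smim13 probe set of similar signal gave 0.05 (SE 0.12). The lens crystallin gene crygm2c had 0.52 (SE 0.14), with 0.36, 0.55 and 0.65 in the blocks. The name of its probe set shares the cluster number of a probe set of tpma, a muscle gene, so the gene measured is uncertain. Disagreement between probe sets of 1 gene was larger than the standard errors for both atp2a2a and smim13.

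The 7 probe sets beyond 1 with one sign in both first-series blocks were picked with their values in view. Besides irg1l these were wls, a carrier of Wnt ligands, gda, guanine deaminase, cyp51, a demethylase of cholesterol synthesis, ncana, a brain proteoglycan, ctrb.2, a chymotrypsinogen, and a probe set with no symbol here. In the second series wls had -0.43, against -2.15 and -1.53 in letter C and letter B of the first series. The second-series values of gda, cyp51, ncana and ctrb.2 were 0.29, 0.26, 0.07 and 1.10, opposite in sign to their first-series values. The probe set with no symbol had 2.39, 4.09 and -2.60. Signals of the wls probe set were 24.4 to 170.9, and 2 brighter wls probe sets gave 0.38 (SE 0.12) and 0.04 (SE 0.10) in place of -1.37 (SE 0.55), which was -0.74 without the array titled TCDD 1.

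Gene lists were described by their counts beside the 3.69% of all probe sets at an unadjusted p under 0.05. No tested member of any of the 18 lists passed after adjustment. Of 8 tested AHR-responsive genes, 6 had a positive and 2 a negative interaction, with a median of 0.17 against -0.0052 over all probe sets. Only gstp1.2, a glutathione transferase gene, had an unadjusted p under 0.05 among them, at 0.27 (SE 0.09), and it was named after its value was seen. The block medians of that list were 0.16, -0.06 and 0.26, so its sign was not shared by letter B of the first series. Of 13 xenobiotic metabolism genes 11 were positive (median 0.12), with block medians of 0.20, -0.17 and 0.28 and only 2 members positive in letter B of the first series. Of 17 genes of the NRF2 antioxidant response 13 were positive (median 0.09), with block medians of 0.17, -0.07 and 0.11. The 4 estrogen-responsive genes that could be tested had a median of -0.04 and ran from -0.28 to 0.16. The lowest of them was fkbp5, which is also in the stress list. Other lists overlap too: gstp1.2 and nqo1 are in the AHR and NRF2 lists, and sult6b1 and cyb5a in the AHR and xenobiotic lists.

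Stress and early response genes leaned the other way. Of 29 members, 22 had a negative and 7 a positive interaction, with a median of -0.19 and 0 members at an unadjusted p under 0.05. Over all probe sets tested 48.7% were positive. The block medians of the stress list were -0.35, -0.24 and -0.00, with 8, 6 and 14 members positive. The lean was thus that of the first-series blocks and was not seen in the second series. Its members had a median cyp1a-state difference of 0.34 among cyp19a1b-high arrays and 0.59 among cyp19a1b-low arrays. The clock list had 15 of 18 members negative (median -0.08), with block medians of -0.18, -0.30 and 0.20. Leukocyte and inflammation genes had a median of -0.04 over 15 members. The list includes ccl27a and the mpx probe set of uncertain gene, which both passed the filter only through the cyp1a-high arrays. Its medians, counts and levels include them and are descriptions. Of its members, 2 had a negative interaction at an unadjusted p under 0.05. They were mmp9, a matrix protease gene of inflamed tissue, at -0.52 (SE 0.21), and nfkbiaa, an inhibitor of NF-kB, at -0.46 (SE 0.21). Both were named after their values were seen.

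Digestive organ genes showed how strongly a list could change sign between blocks. Exocrine pancreas genes, which encode digestive enzymes, had a median interaction of 0.02 over 17 members in all 12 arrays, made of block medians of -0.29 in letter C, -0.47 in letter B of the first series and 0.83 in the second series. Positive members numbered 6, 0 and 16 of 17 in these blocks, and only cel.1, a lipase gene, had an unadjusted p under 0.05, at -0.39 (SE 0.16). Intestine genes had 9, 0 and 13 positive of 15 members, with block medians of 0.09, -0.41 and 0.55. The mean log2 level of the pancreas list was 10.23, 10.10 and 10.13 in the both-high arrays, 10.25, 10.28 and 9.91 with cyp1a high alone, 10.75, 10.61 and 9.48 with cyp19a1b high alone, and 10.44, 10.24 and 10.01 with neither high. The array titled TCDD 3, with cyp19a1b high alone in the second series, had the lowest level of the pancreas list, and also the lowest of the intestine list (9.05, against 9.38 to 10.02 in the other arrays), the xenobiotic list (8.01, against 8.43 to 9.17) and the stress list (8.78, against 9.10 to 9.67). It was also lowest for the AHR list (9.36, against 9.57 to 10.99), the NRF2 list (10.27, against 10.36 to 10.69), the estrogen list (9.39, against 9.51 to 9.94) and the liver list (10.98, against 11.02 to 11.26). Several of these lists share members. For all remaining lists another array was lower, by little for the clock list (8.28, against 8.27 in DMSO 2) and the leukocyte list (7.526, against 7.519 in TCDD 2). The part of the digestive organ genes or of that array in the interactions of other genes was not tested, apart from the values without the array.

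**Figure D5:**
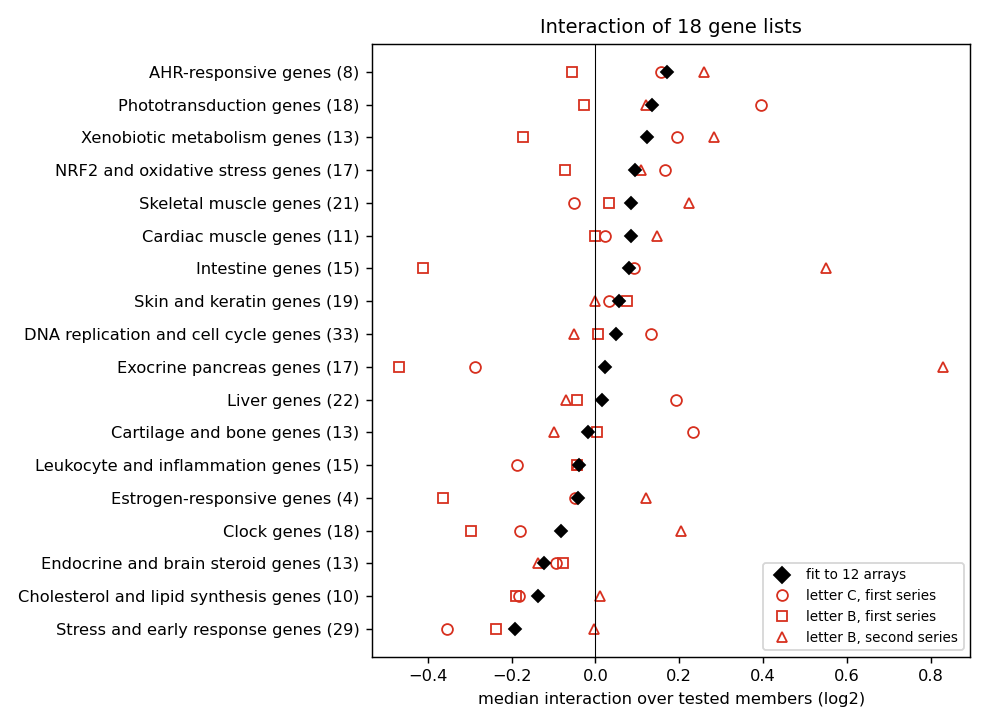
Median interaction over the tested members of 18 gene lists (number of members in brackets) on the log2(signal + 16) scale, for the fit to 12 arrays (black) and for each block (red symbols). The exocrine pancreas and intestine lists have block medians of opposite sign, from -0.47 to 0.83 and from -0.41 to 0.55, around medians near 0 over 12 arrays. The leukocyte list includes ccl27a and an mpx probe set that passed the filter only through the cyp1a-high arrays.

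The medians of the other 9 lists over 12 arrays ran from -0.14 for 10 genes of cholesterol and lipid synthesis to 0.14 for 18 phototransduction genes. The phototransduction list had 15 positive members and block medians of 0.39, -0.03 and 0.12. Skeletal muscle genes had 16 of 21 members positive (median 0.09), but 7 of 21 in letter C, with block medians of -0.05, 0.03 and 0.22. Cardiac muscle genes had 9 of 11 positive (median 0.08), with 6, 5 and 7 in the blocks. Skin and keratin genes had a median of 0.06 over 19 members, DNA replication and cell cycle genes 0.05 over 33, liver genes 0.02 over 22, and cartilage and bone genes -0.02 over 13. Members of these lists with an unadjusted p under 0.05, named with their values in view, were fabp10a, itih2 (0.33) and apobb.1 (-0.23) among liver genes, crx (0.29) and rcvrn2 (0.24) among phototransduction genes, myl1 (0.21) among skeletal muscle genes, and cyp51 (-0.78) among genes of cholesterol synthesis. Endocrine and brain steroid genes had 11 of 13 members negative (median -0.12), with igfbp1a, a binding protein of insulin-like growth factors, at -0.32 (SE 0.15) as the only one at an unadjusted p under 0.05. The members of a list are not independent of each other, and no list was tested.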

How the data were processed

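RNA of pools of whole larvae was hybridised to 12 Affymetrix zebrafish arrays. The authors deposited 1 intensity for each probe set, the linear MAS5 signal. It came from Affymetrix Expression Console according to the submitters' processing notes, without versions. Other steps are not given in the sources used here. The trimmed means of the arrays (2% off each side) differed from their median by at most 0.00225%, so the values were used as deposited. Of 15617 probe sets, 115 controls and those under the 25th percentile of mean log2(signal + 16) were left out. Symbols came from a probe table updated through RefSeq by Entrez ID (10718 matched, 1 changed): 10802 probe sets had 1 symbol, 135 several and 4680 none. Arrays carry no counts, so their number limits the precision.

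The interaction was fitted with limma 3.58.1 in R 4.3.3 (lmFit, eBayes with a variance trend) on 3 blocks plus both marker states, with 6 residual degrees of freedom, two-sided, with Benjamini-Hochberg adjustment over 11626 probe sets at 0.05. The model was run on simulated arrays with independent noise, which does not cover repeats of the same RNA. The share of simulated interactions recovered is not given here, so the power after adjustment is not stated. Members, lists and alternatives were chosen with earlier results of these data known. Named were the 8 genes of smallest unadjusted p, the 10 largest differences of each marker state with one sign in 3 blocks (1 probe set per gene), and a set of AHR, estrogen, clock and stress genes; any other gene is marked as such. Lists held 1 probe set per gene.

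The replicate numbers of the titles were checked as a pairing, on deviations from the means of the titled groups. Of the same-numbered pairs of different groups, 18 of 18 correlated over 0.1 before the letter was taken out (0.143 to 0.603), and 0 of 18 after it. The arrays of number 1 are exactly the letter C arrays. Taking out the letter subtracts their own mean, which lowers their correlations whatever the pairing. The check therefore cannot decide whether the numbers pair arrays. The fit with the replicate block is an alternative. Other alternatives were pseudocounts, filters, scalings, other blocks, array weights, grouping by titles or by description number, and leaving out each array or block.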

Additional observations from a re-analysis of the deposited data

Results flagged for a closer look

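For 5 named genes the cyp1a-state difference had one sign among cyp19a1b-high arrays in every block and the opposite sign among cyp19a1b-low arrays in every block. They are irg1l, with an interaction of -1.06, gemin7 with -0.73, smim13 with 0.56, atp2a2a with -0.85 and pla2g12b with -0.67. These genes were named for small unadjusted p-values of that same interaction, and each had a limma adjusted p of 0.998. Over all 11626 probe sets tested, 232 (2.0%) had opposite signs in this way. Other probe sets of smim13 and atp2a2a did not. A second smim13 probe set of similar signal gave an interaction of 0.05, and a brighter atp2a2a probe set gave 0.12. For irg1l the cyp1a-state difference was -0.55 among cyp19a1b-high arrays and 0.51 among cyp19a1b-low arrays, and for smim13 it was 0.19 and -0.37.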

How the results depend on the processing

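The count of 0 probe sets at an adjusted p under 0.05 was the same in all 31 alternatives. The lowest adjusted p was 0.0811 without the array titled E2+TCDD 2, 0.0823 without the second series (the same 8 arrays as the grouping by description number) and 0.0965 with no filter. At an unadjusted p under 0.05, the 429 probe sets became 106 without a block, 274 of 7751 tested with a filter at the 50th percentile, and 679 in cells by titles. Leaving out each array gave 339 to 557. With the replicate block, in place of letter and series, there were 330, and no call changed.

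Of 975 values of the 39 named probe sets under the alternatives, 936 kept their sign and 39, in 15 probe sets, changed it, none past the threshold. Without letter C, ccl27a had -0.22, ctsd -0.017, sox9b -0.062, armc1 0.22 and ccdc137 -0.15. Without letter B of the first series, the probe set with no symbol had -0.10, si:dkey-193p11.2 -0.049, rrad -0.059, wdhd1 0.030 and per2 0.025. Without the second series, cyp3a65 had -0.13, tspan34b 0.14 and actn2b -0.040. With array weights, cyb5a had -0.040, armc1 0.027 and per2 0.41, and with arrays of one number averaged rrad had -0.016. The cause of these changes was not tested. Leaving out each array changed the sign of cyp3a65 (-0.15 to 0.57), ccl27a (-0.091 to 0.57), fosab (-1.09 to 0.15), tspan34b (-0.34 to 0.046), actn2b (-0.017 to 0.31), cyb5a (-0.070 to 0.23), sox9b (-0.029 to 0.18), armc1 (-0.34 to 0.10), ccdc137 (-0.11 to 0.36), rrad (-0.11 to 0.35), wdhd1 (-0.23 to 0.095) and per2 (-0.83 to 0.46). On linear signal, an alternative chosen after seeing the data, 0 passed and 423 had an unadjusted p under 0.05. Dim probe sets, such as those of the estrogen receptors, limit what could be measured.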
